A study of Mus musculus with 22 samples.

Results

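The genes described here are 7 members of the E2F transcription factor family (E2f1, E2f2, E2f3, E2f5, E2f6, E2f7 and E2f8), the 2 genes for their DP dimerization partners (Tfdp1 and Tfdp2) and the retinoblastoma gene Rb1. They were found by symbol in both count tables, and make up 10 of the 48709 genes in each. The RNA came from ventricles of mouse embryos at E13.5, and all of them carried Nkx2.5-Cre, a Cre recombinase expressed from the Nkx2.5 locus in cardiac precursor cells. In the first experiment, of 6 libraries, Lin9 was either present (LIN9 wt) or deleted (LIN9 KO). Its labels name no Sav1 genotype, which is taken here to be wild-type. The second experiment held 12 libraries of 4 genotypes, which were the control (LIN9 wt and Sav1 wt), LIN9 KO, SAV1 KO and the double KO of Lin9 and Sav1. Each of the 6 groups had 3 libraries. Lin9 encodes a subunit of the MuvB complex that binds cell cycle promoters, and Sav1 encodes the scaffold protein Salvador of the Hippo pathway. The knockouts had lost exon 7 of Lin9, exon 3 of Sav1 or both in Cre-expressing cells, while the LIN9 wt genotype is named wild-type in the labels and given as heterozygous Lin9 fl/+ in the study's text. Cells of the ventricle that never expressed Cre kept their alleles, so that each library mixed recombined and other cells, and a lower value in such a bulk sample cannot separate fewer cells of a type from less RNA per cell. No label says which libraries came from different embryos, and the study describes its LIN9 KO comparison as a pair of biological replicates, each done in triplicate. Its methods mention RNA isolated in triplicates from ventricles. Libraries of a group differed to unlike degrees. The mean chi-square per gene was 1.22 between control replicates 2 and 3 of the second experiment. Between LIN9 KO libraries of the first it was 16.2 to 26.2. Some libraries of a group may therefore be technical repeats, and which of them are was not tested. The p-values measure only the spread between libraries, and 9 libraries against 9 may hold far fewer independent samples.

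E2F proteins bind promoters of genes for DNA synthesis and the cell cycle, most of them as dimers with a DP protein. E2F1, E2F2 and E2F3 activate transcription, E2F5 acts mainly as a repressor together with the pocket proteins related to RB, E2F6 represses without pocket proteins as part of a Polycomb complex, and E2F7 and E2F8 are atypical repressors that bind DNA without DP. RB binds the activators in early G1 and silences them until cyclin-dependent kinases phosphorylate it. The MuvB core, of which LIN9 is a subunit, joins E2F and DP proteins and a pocket protein in the DREAM complex, which represses cell cycle genes in resting cells, and joins B-MYB in dividing cells.

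E2F genes are themselves known to be controlled by E2F, and MuvB contacts a DNA element called CHR, so the promoters of members are shown with these letters marked. RefSeq promoter windows (build GRCm38.p6, 250 bases before to 50 bases after the start site) were at hand for 8 of the 10 members, in 12 windows. The E2F words searched on both strands were TTTCCCGC, TTTCGCGC, TTTGCCGC and TTTGGCGC, and the CHR words were TTTGAA and TTCGAA. At least 1 E2F word was present in 2.26% and at least 1 CHR word in 19.2% of the 32851 promoter windows of the genome. Among the members, E2F words were found for 4 genes (E2f2, E2f3, E2f7 and Tfdp1) and CHR words for 3 genes (E2f2, E2f3 and E2f8), and no match overlapped another. The windows below are those of 4 members with a match. E2f2, whose words lie in separate windows, is not printed. Capitals mark the matches, the strand is that of the gene, and negative positions lie before the start site.
E2f8 promoter (chr7:48881547-48881846, minus strand): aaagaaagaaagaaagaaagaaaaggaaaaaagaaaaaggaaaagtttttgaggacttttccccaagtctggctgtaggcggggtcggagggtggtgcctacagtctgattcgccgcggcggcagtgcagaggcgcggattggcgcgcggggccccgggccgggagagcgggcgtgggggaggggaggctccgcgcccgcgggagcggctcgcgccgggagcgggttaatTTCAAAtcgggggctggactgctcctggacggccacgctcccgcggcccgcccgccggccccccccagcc
E2f7 promoter (chr10:110745189-110745488, plus strand): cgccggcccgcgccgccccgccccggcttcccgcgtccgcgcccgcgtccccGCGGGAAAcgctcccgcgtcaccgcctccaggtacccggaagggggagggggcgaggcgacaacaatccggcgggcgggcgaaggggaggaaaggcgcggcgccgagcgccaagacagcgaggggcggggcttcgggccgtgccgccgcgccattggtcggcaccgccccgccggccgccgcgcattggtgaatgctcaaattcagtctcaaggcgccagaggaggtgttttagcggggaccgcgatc
E2f3 promoter (chr13:29986014-29986313, minus strand): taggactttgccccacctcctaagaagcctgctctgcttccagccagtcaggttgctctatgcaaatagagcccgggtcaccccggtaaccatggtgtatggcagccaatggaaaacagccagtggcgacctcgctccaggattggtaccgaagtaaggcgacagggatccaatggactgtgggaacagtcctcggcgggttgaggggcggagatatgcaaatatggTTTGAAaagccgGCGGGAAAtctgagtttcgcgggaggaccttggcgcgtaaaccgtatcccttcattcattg
Tfdp1 promoter (chr8:13338501-13338800, plus strand): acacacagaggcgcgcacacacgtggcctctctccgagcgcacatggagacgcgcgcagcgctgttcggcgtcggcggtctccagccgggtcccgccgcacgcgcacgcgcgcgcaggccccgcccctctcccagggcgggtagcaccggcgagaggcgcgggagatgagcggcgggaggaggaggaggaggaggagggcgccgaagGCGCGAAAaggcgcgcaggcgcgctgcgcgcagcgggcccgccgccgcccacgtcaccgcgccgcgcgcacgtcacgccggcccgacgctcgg
The CHR word of E2f8 began at position -20, where it lay on the opposite strand. E2f7 had its E2F word, also on the opposite strand, at position -198. E2f3 had a CHR word at position -23 and an E2F word, on the opposite strand, at position -11. The E2F word of Tfdp1, again on the opposite strand, lay at position -43 of the printed window and at -96 of its second window. The words of E2f2 lay in separate windows, the E2F word at position 40 and the CHR word at position -31 of a window inside the annotated gene (chr4:136180532-136180831). E2f1, E2f6 and Tfdp2 had windows with none of these letters, but the windows of E2f1 (chr2:154569377-154569676) and Tfdp2 (chr9:96258455-96258754 and chr9:96258998-96259297) lie inside the annotated genes and do not cover their outermost 5′ ends. A match describes the sequence and does not show that a factor binds there.

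In the absence of either deletion all 10 genes were expressed. Per kb of exon, Tfdp1 had the highest level with 31.3 CPM per kb (CPM, counts relative to the TMM-normalised library size) in LIN9 wt ventricles of the first experiment and 29.1 CPM per kb in the control of the second. E2f6 (17.8 and 15.4 CPM per kb) and E2f1 (17.3 and 16.3 CPM per kb) came next, and their libraries overlapped in both experiments. E2f5 (13.7 and 11.9 CPM per kb) and E2f3 (11.4 and 11.7 CPM per kb) followed, separated in the first experiment and overlapping in the second. E2f8 reached 7.68 and 6.87 CPM per kb. The libraries of E2f2 (4.23 and 4.23 CPM per kb) and Tfdp2 (4.03 and 4.14 CPM per kb) overlapped, as did those of E2f7 (1.87 and 1.75 CPM per kb) and Rb1 (1.75 and 2.08 CPM per kb). These places depend on the length used. Per kb of the longest transcript, E2f6 (33.5 and 29 CPM per kb) lay above E2f1 (19.8 and 18.6 CPM per kb), and Tfdp2 (7.68 and 7.91 CPM per kb) above E2f2 (4.36 and 4.36 CPM per kb), without overlap in either experiment. Other annotated genes cover 47% of the exon bases of E2f8, 59.7% of those of Rb1 and 30.2% of those of E2f7, and protein-coding genes that lie within another gene had no count in any library in 93.4% of cases, against 14.2% of the other protein-coding genes, so reads under 2 genes appear to be missing from these tables. Per kb of exon free of other genes, E2f8 reached 14.5 and 13 CPM per kb and Rb1 reached 4.35 and 5.16 CPM per kb.

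**Figure D1:**
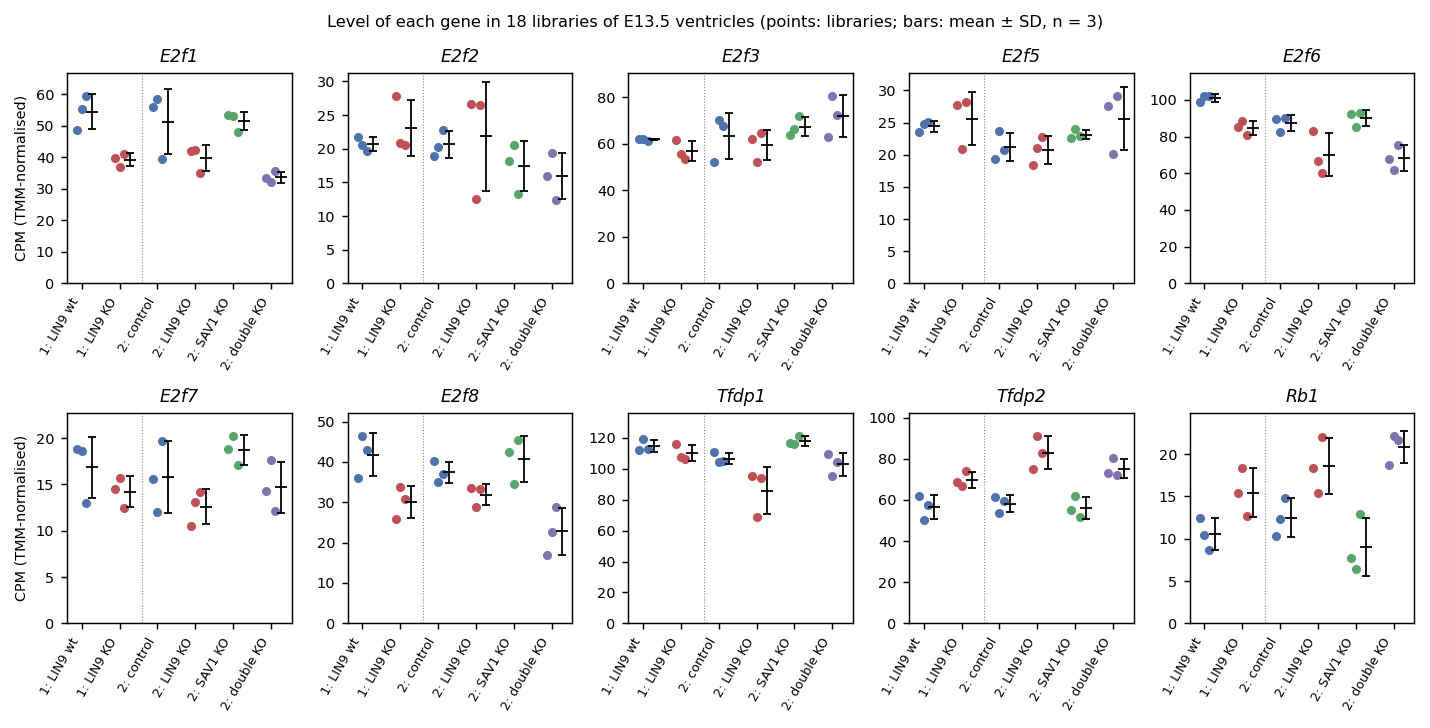
CPM (TMM-normalised) of each of the 10 genes in 18 libraries, by experiment (1 or 2) and genotype. Points are libraries and black bars the mean and SD of 3 libraries. In each of the 3 LIN9 comparisons, Tfdp2 and Rb1 lie higher and E2f8 lies lower in all libraries with the deletion than in those without it.

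The deletions were first checked on the targeted genes. Lin9 counts over the whole gene gave 29.8, 21.4 and 25.6 CPM in LIN9 wt and 21.4, 21.3 and 19.2 CPM in LIN9 KO ventricles of the first experiment. For Lin9, the second experiment gave 29.3, 28.1 and 23.2 CPM in the control, 13.1, 15.4 and 17.9 CPM in LIN9 KO, 19.2, 31.4 and 25.6 CPM in SAV1 KO and 23.5, 26.1 and 18.5 CPM in double KO ventricles. Lin9 was lower by 0.31 and 0.80 on the log2 scale in the LIN9 KO libraries of the 2 experiments (adjusted p = 0.13 and 0.0027, edgeR), but the double KO libraries overlapped those of SAV1 KO (log2 fold change -0.16, adjusted p = 0.586). With 1 library left out, the Lin9 log2 fold change of the first experiment ranged from -0.42 to -0.19. Counts of the whole gene include the exons that are kept, and cells without Cre, so this is a weak check of the labels. Sav1 had 54.5, 56.2 and 61.9 CPM in the control against 43.1, 36.1 and 43.0 CPM in SAV1 KO, and 51.9, 49.9 and 47.3 CPM in LIN9 KO against 44.0, 40.5 and 42.3 CPM in double KO. The Sav1 groups did not overlap in either pair (adjusted p = 0.318 and 0.464).

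Deletion of Lin9 could be compared in 3 sets of libraries that share none: the first experiment, the second experiment with wild-type Sav1, and the second experiment with Sav1 deleted. Over these 3 comparisons, 7 of the 10 members changed. E2f1, E2f6, E2f7, E2f8 and Tfdp1 fell and Tfdp2 and Rb1 rose in the mean of the 3 LIN9 effects (9 libraries against 9, 1 fit of 18 libraries with edgeR's quasi-likelihood test). This fit scaled the 18 libraries together, so the mean effects given below are not the plain averages of the 3 single fold changes. The same test called 45.5% of the 17656 genes tested, 21.6% higher and 23.9% lower. Each of these 7 members also had the same sign in all 3 comparisons, as did 64% of all genes, and the libraries of E2f8, Tfdp2 and Rb1 did not overlap in any of the 3, as was the case for 17.3% of all genes. No member was called in all 3 comparisons taken singly, where 12% of genes were. The replicate block of the second experiment, described below, also spanned libraries that its numbers did not pair. With it for the comparison with wild-type Sav1, E2f1 and Rb1 were called in each of the 3, as were 12.3% of genes. The mean of the 3 LIN9 effects was computed after the single comparisons had been seen.

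**Figure D2:**
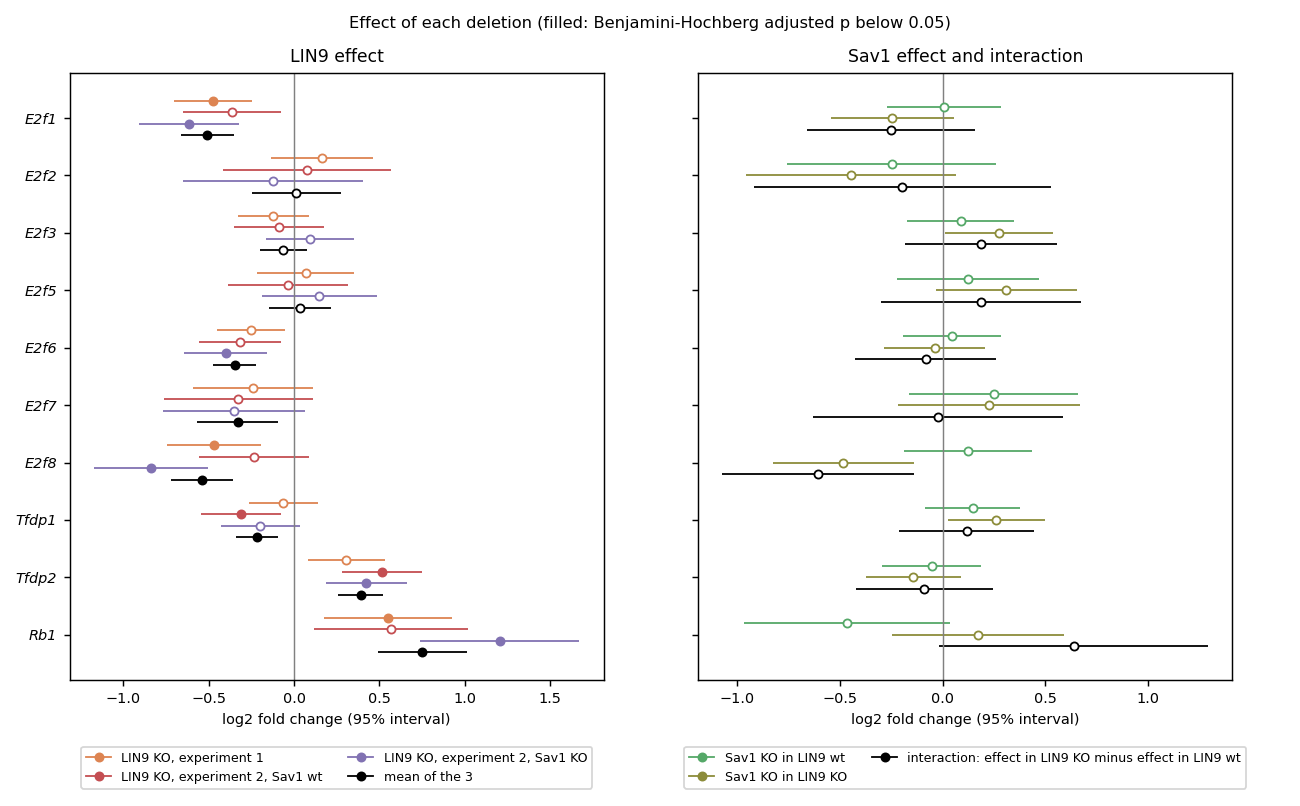
Log2 fold change with its 95% interval for each gene, after deletion of Lin9 (left) and of Sav1 (right). Filled points passed an adjusted p of 0.05 in edgeR. For E2f1, E2f6, E2f7, E2f8 and Tfdp1 the mean of the 3 LIN9 effects (black, left) lies below 0 and for Tfdp2 and Rb1 above it, while no point on the right is filled.

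Of the 10 members, 3 were called in the first experiment (1 higher, 2 lower), where 20.9% of 19752 genes were called (11.1% higher and 9.78% lower). In the second experiment with wild-type Sav1, 2 members were called (1 higher, 1 lower) beside 23.2% of 17675 genes (12.8% higher and 10.5% lower). With Sav1 deleted, 5 members were called (2 higher, 3 lower) beside 23.4% of genes (11.8% higher and 11.6% lower). The median log2 fold change of the 10 members was -0.09, -0.16 and -0.16 in the 3 comparisons, against 0.02, 0.01 and 0.03 for all genes. In the second experiment with wild-type Sav1 the replicate numbers paired the libraries. With the replicate as a block in the fit of all 12 libraries, 5 members were called there in place of 2, beside 24.7% of all genes. Those added were E2f1 (adjusted p = 0.0433, edgeR), E2f6 (0.0347) and Rb1 (0.0349). The block also joined SAV1 KO and double KO libraries, which the numbers did not pair (correlations -0.066 to -0.021). It is therefore not a test of the paired libraries alone. The difference between the LIN9 effects of the 2 experiments with wild-type Sav1 was called for 0 of 10 members by edgeR (0% of 17505 genes). At this step 0 members but 911 genes had an unadjusted p under 0.05, and the difference for E2f1 was 0.10 with an interval from -0.30 to 0.51.

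Among the activators, E2f1 was called and E2f2 and E2f3 were not. E2f1 (chr2:154559407-154569892, minus strand, mm10), the member best known for driving S phase entry, was measured at 48.6, 55.3 and 59.5 CPM in LIN9 wt and at 39.7, 37.0 and 40.9 CPM in LIN9 KO ventricles of the first experiment. The control of the second experiment gave 55.8, 58.6 and 39.4 CPM and LIN9 KO 42.1, 42.3 and 35 CPM, so that the third control library lay among the knockouts. SAV1 KO libraries gave 53.5, 53.0 and 48.1 CPM and double KO libraries 33.4, 32.0 and 35.6 CPM, with a wide gap between them. The log2 fold change was -0.47 (SE 0.108, adjusted p = 0.00524), -0.36 (SE 0.140, adjusted p = 0.0608) and -0.61 (SE 0.143, adjusted p = 0.00201) in the 3 comparisons. Without the third control library the middle value was -0.52 (adjusted p = 0.00952). Over all 6 omissions it ranged from -0.52 to -0.30, with adjusted p-values up to 0.211 (edgeR), and 2 of them passed the threshold. In their mean, E2f1 fell by 29.7% (log2 -0.51, 95% interval -0.66 to -0.35, adjusted p = 2.59e-06), and left-out libraries kept this between -0.53 and -0.46.

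E2f2 (chr4:136172394-136196057, plus strand) and E2f3 (chr13:29906575-29986063, minus strand), the other activators, were not called in any comparison. E2f2 had 19.6 to 21.7 CPM in LIN9 wt and 20.6 to 27.9 CPM in LIN9 KO libraries of the first experiment, and its LIN9 KO libraries of the second experiment had 26.6, 12.5 and 26.5 CPM. The mean LIN9 effect on E2f2 was 0.01 with an interval from -0.25 to 0.27. E2f3 had 61.4 to 62.1 CPM in LIN9 wt and 53.4 to 61.6 CPM in LIN9 KO libraries of the first experiment, and its groups in the second experiment overlapped between 52.2 and 80.7 CPM. The mean LIN9 effect on E2f3 was -0.06 (interval -0.20 to 0.08). A test of E2f1 against E2f3 was not made.

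Among the repressors, E2f5 (chr3:14578641-14606309, plus strand) did not pass the test (mean LIN9 effect 0.04, interval -0.15 to 0.22), and all its libraries lay between 18.4 and 29.2 CPM. E2f6 (chr12:16810963-16839742, plus strand), the Polycomb-associated repressor, had 98.7, 102 and 102 CPM in LIN9 wt and 85.3, 88.3 and 80.8 CPM in LIN9 KO ventricles of the first experiment. The control of the second experiment had 89.8, 82.6 and 89.9 CPM and LIN9 KO 83.2, 66.6 and 60.4 CPM, where the first knockout library lay above the lowest control. SAV1 KO had 92.5, 85.1 and 92.8 CPM and double KO 67.8, 61.6 and 75.4 CPM, and these groups were apart. The log2 fold changes were -0.25 (SE 0.094, adjusted p = 0.0726), -0.32 (SE 0.118, adjusted p = 0.0508) and -0.40 (SE 0.118, adjusted p = 0.0134). The second value passed the threshold without control replicate 2 (adjusted p = 0.0359) or LIN9 KO replicate 1 (log2 -0.48, adjusted p = 0.00322). In the other omissions the second value missed the threshold, with log2 fold changes up to -0.25 and adjusted p-values up to 0.166 (edgeR). The last value missed the threshold without the third SAV1 KO (adjusted p = 0.0548) or the second double KO library (0.0699). In the mean of the 3, E2f6 fell by 21.4% (log2 -0.35, interval -0.47 to -0.22, adjusted p = 3.07e-05).

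The atypical repressors E2f7 and E2f8 both fell. E2f8 (chr7:48866429-48881596, minus strand) had the lowest mean log2 fold change of the members, with 35.9, 46.5 and 42.9 CPM in LIN9 wt and 25.8, 33.8 and 30.7 CPM in LIN9 KO ventricles of the first experiment. The second experiment gave 40.2, 34.9 and 37.0 CPM in the control and 33.5, 28.9 and 33.2 CPM in LIN9 KO. SAV1 KO libraries had 42.4, 34.4 and 45.4 CPM, and double KO libraries had 17.0, 22.5 and 28.8 CPM, of which the highest lay below the lowest SAV1 KO library. The log2 fold changes were -0.47 (SE 0.129, adjusted p = 0.0164), -0.23 (SE 0.157, adjusted p = 0.324) and -0.84 (SE 0.163, adjusted p = 0.000332), and in their mean E2f8 fell by 31.2% (log2 -0.54, interval -0.72 to -0.36, adjusted p = 1.40e-05). In the first experiment the call was lost without LIN9 wt replicate 2, LIN9 wt replicate 3 or LIN9 KO replicate 1 (adjusted p = 0.0965, 0.0654 and 0.091). The non-coding gene Gm2788, which overlaps E2f8 on the opposite strand, had 0.34 to 2.69 CPM in the 18 libraries.

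E2f7 (chr10:110745439-110787384, plus strand) was low, with 18.8, 18.7 and 13 CPM in LIN9 wt and 14.5, 15.7 and 12.4 CPM in LIN9 KO ventricles of the first experiment. It had 15.6, 12 and 19.7 CPM in the control, 10.5, 13.1 and 14.2 CPM in LIN9 KO, 18.8, 20.3 and 17.1 CPM in SAV1 KO and 14.3, 17.6 and 12.1 CPM in double KO libraries, so the groups overlapped in each comparison. No single comparison reached the threshold (log2 -0.24, -0.33 and -0.35), and with 1 library left out these values ranged from -0.40 to -0.15, from -0.52 to -0.14 and from -0.52 to -0.25. In the mean of the 3 comparisons E2f7 fell by 20.5% (log2 -0.33, interval -0.57 to -0.09, adjusted p = 0.0203), and this call was lost without control replicate 3 (adjusted p = 0.104) or double KO replicate 3 (0.079).

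The 2 genes for DP proteins changed in opposite directions. Tfdp1 (chr8:13338751-13378448, plus strand), which encodes the widely expressed partner DP1, had 112, 119 and 113 CPM in LIN9 wt and 116, 108 and 106 CPM in LIN9 KO ventricles of the first experiment, where the groups overlapped. The second experiment gave 111, 104 and 105 CPM in the control against 95.3, 68.6 and 93.9 CPM in LIN9 KO, and 117, 116 and 121 CPM in SAV1 KO against 109, 95.1 and 104 CPM in double KO. These pairs did not overlap. The log2 fold changes were -0.06 (adjusted p = 0.713), -0.31 (SE 0.114, adjusted p = 0.0464) and -0.20 (adjusted p = 0.22), and in their mean Tfdp1 fell by 13.8% (log2 -0.22, interval -0.34 to -0.09, adjusted p = 0.00431). The second value rests in part on LIN9 KO replicate 2, without which it was -0.21 (adjusted p = 0.238), and it also missed the threshold without any single control library (adjusted p = 0.094, 0.052 and 0.0931).

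Tfdp2 (chr9:96196275-96323646, plus strand), which encodes the partner DP2, had 61.9, 50.2 and 57.4 CPM in LIN9 wt and 68.5, 66.6 and 74.1 CPM in LIN9 KO ventricles of the first experiment. For Tfdp2, the second experiment gave 61.5, 53.4 and 59.5 CPM in the control against 74.9, 91.2 and 82.8 CPM in LIN9 KO. SAV1 KO libraries had 54.9, 61.8 and 51.5 CPM against 73.3, 80.3 and 71.9 CPM in double KO. Every library with the Lin9 deletion lay above every library without it, across both experiments. The share of all genes with this separation was not computed. Within each of the 3 comparisons, groups were apart in the same direction for 17.3% of all genes. The log2 fold changes were 0.30 (SE 0.106, adjusted p = 0.0534), 0.51 (SE 0.114, adjusted p = 0.00134) and 0.42 (SE 0.116, adjusted p = 0.00779), and in their mean Tfdp2 rose by 30.9% (log2 0.39, interval 0.26 to 0.52, adjusted p = 1.19e-05). In the Sav1 KO background the call was lost without SAV1 KO replicate 3 or double KO replicate 2 (adjusted p = 0.0564 and 0.0637).

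Rb1 (chr14:73183673-73325822, minus strand) rose by 68.4% in the mean of the 3 LIN9 effects (log2 0.75, interval 0.49 to 1.01, adjusted p = 1.65e-05), the largest change of the members in either direction. It had 12.5, 10.4 and 8.73 CPM in LIN9 wt and 15.4, 18.4 and 12.6 CPM in LIN9 KO ventricles of the first experiment. In the second experiment it had 10.3, 12.3 and 14.9 CPM in the control and 18.4, 15.4 and 22.0 CPM in LIN9 KO. SAV1 KO libraries had 7.74, 6.42 and 13 CPM and double KO libraries 18.7, 22.2 and 21.7 CPM. The groups were apart in each comparison, and the log2 fold changes were 0.55 (SE 0.176, adjusted p = 0.0365), 0.57 (SE 0.220, adjusted p = 0.0613) and 1.20 (SE 0.228, adjusted p = 0.000241). These values rest on few reads, between 84 and 175 counts per library in the first and between 19 and 63 counts in the second experiment. In the first experiment the call held only without LIN9 wt replicate 1 or LIN9 KO replicate 3, and the other 4 omissions gave adjusted p-values from 0.0791 to 0.161. Rcbtb2, the gene that overlaps the end of Rb1 on the other strand, had 51.1 to 51.6 CPM in LIN9 wt and 53.5 to 57.5 CPM in LIN9 KO libraries of the first experiment, and 46.1 to 58.2 CPM in the libraries of the second.

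Transcripts of other cell types moved with the Lin9 deletion. All 6 cardiomyocyte markers were present, and their summed level was 13770 to 15614 CPM in LIN9 wt against 6498 to 11097 CPM in LIN9 KO libraries of the first experiment, and 16219 to 18232 CPM without against 7884 to 11032 CPM with the deletion in the second. The erythroid list without haemoglobins went from 69.4 to 122 CPM up to 362 to 905 CPM in the first experiment, and from 36.1 to 54.2 CPM up to 153 to 378 CPM in the second. Alas2, a defining marker of the list, had 0 counts in every library. Reads under 2 genes appear to be missing from these tables, and whether this applies to Alas2 was not tested. Within this list, 8, 7 and 6 of 8 tested genes were called higher in the 3 comparisons, beside 11.1%, 12.8% and 11.8% of all genes. The summed levels of the macrophage list were 74.6 to 80.0 CPM against 141 to 165 CPM in the first and 60.1 to 78.5 CPM against 138 to 186 CPM in the second experiment. Epicardial markers (242 to 261 CPM against 405 to 470 CPM, and 192 to 228 CPM against 353 to 468 CPM) and fibroblast and cushion markers (2139 to 2460 CPM against 4451 to 4906 CPM, and 2823 to 3341 CPM against 5063 to 6642 CPM) were also higher, and the endothelial sum overlapped in the first experiment (803 to 1062 CPM against 967 to 1248 CPM) but not in the second (885 to 907 CPM against 917 to 1069 CPM with wild-type Sav1, and 778 to 843 CPM against 867.8 to 1043 CPM with Sav1 deleted). In each of the 3 comparisons, 4 of the 6 endothelial genes had a log2 fold change above 0 and 2 had one below it. The proliferation list was lower, at 818 to 879 CPM against 1088 to 1209 CPM in the first and 766 to 968 CPM against 1057 to 1577 CPM in the second experiment. The part of these shifts in the changes of the members was not tested.

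**Figure D3:**
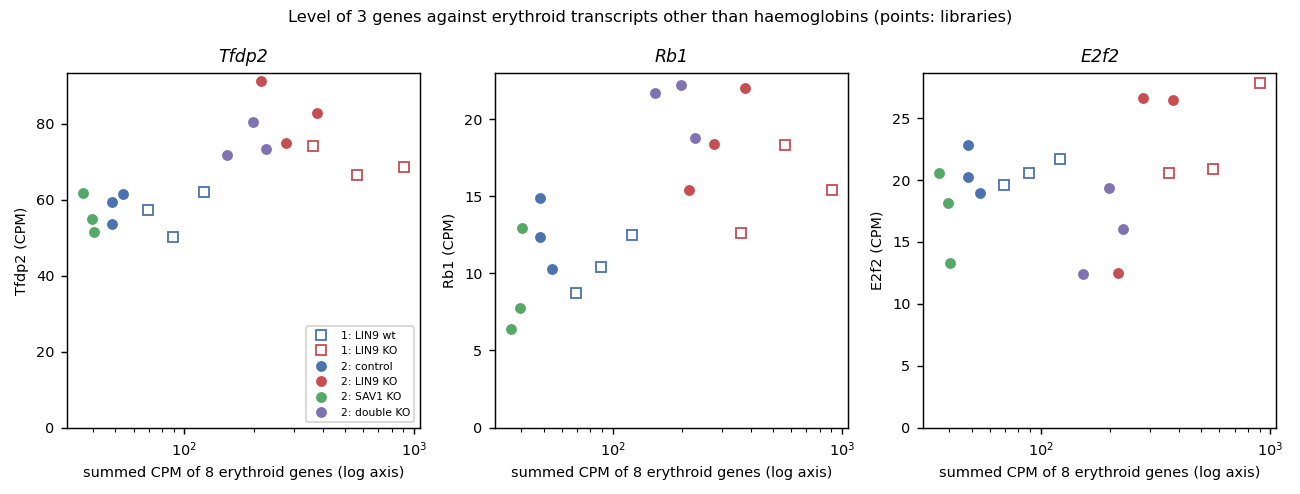
CPM of Tfdp2, Rb1 and E2f2 against the summed CPM of 8 erythroid genes other than haemoglobins, on a log axis. Points are libraries, squares the first and circles the second experiment. The library with the highest erythroid sum, LIN9 KO replicate 1 of the first experiment at 905 CPM, had the highest E2f2 level. Its Tfdp2 (68.5 CPM) and Rb1 (15.4 CPM) lay between those of the other 2 LIN9 KO libraries of that experiment. In the second experiment LIN9 KO replicate 3 had the highest sum, at 378 CPM. It had the highest Rb1 of its group (22.0 CPM), while its E2f2 (26.5 CPM) and Tfdp2 (82.8 CPM) lay between those of the other 2. A relation to erythroid content was not tested.

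The libraries with the highest erythroid sum were left out in turn. Without LIN9 KO replicate 1 of the first experiment, the mean LIN9 effect called 7 members as before, beside 7715 genes in place of 8036. Without LIN9 KO replicate 3 of the second it also called 7 members, beside 7685 genes. In the first experiment alone, 1 member was called without LIN9 KO replicate 1 in place of 3, beside 16.6% of all genes in place of 20.9%. Every remaining library with the Lin9 deletion still had a higher erythroid sum (at least 153 CPM) than any library without it (at most 122 CPM), so these omissions do not separate erythroid content from the deletion.

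Deletion of Sav1 was compared in both LIN9 backgrounds, which asks whether loss of Hippo signalling, a restraint on the coactivator YAP, changes these genes and whether LIN9 is needed for it. No member was called in the LIN9 wt background by edgeR, where 0.017% of 17675 genes (3 genes) were called, and 0 members but 693 genes had an unadjusted p under 0.05. DESeq2 also called 0 members. The intervals of the log2 fold changes reached from -0.27 to 0.29 for E2f1, from -0.19 to 0.44 for E2f8, from -0.08 to 0.38 for Tfdp1 and from -0.97 to 0.04 for Rb1 in these libraries. Tfdp1 was the only member whose SAV1 KO libraries did not overlap the control (116 to 121 CPM against 104 to 111 CPM), as was the case for 12.1% of all genes. The replicate numbers paired these libraries, and within each pair Rb1 was lower and E2f5, E2f6 and Tfdp1 were higher in SAV1 KO. The share of all genes with the same direction in every pair was not computed. A replicate block did not change the number of members called.

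In the LIN9 KO background, 0 members were called by edgeR and by DESeq2, where edgeR called 0.0113% of genes (2 genes). At an unadjusted p under 0.05 there were 2093 of 17675 genes and 3 members, which were E2f3 (log2 0.27, adjusted p = 0.397), Tfdp1 (0.26, adjusted p = 0.371) and E2f8 (-0.48, adjusted p = 0.232). These values moved with single libraries, to 0.14 for Tfdp1 without LIN9 KO replicate 2, to 0.18 for E2f3 without double KO replicate 2, and to -0.32 for E2f8 without double KO replicate 1. E2f8 was the only member whose groups were apart, with 17.0 to 28.8 CPM in double KO and 28.9 to 33.5 CPM in LIN9 KO libraries, where 15.1% of all genes had groups apart. The difference between both Sav1 effects (LIN9 KO background minus LIN9 wt background), an interaction term, called 0 members and 0% of genes in edgeR and 0 members in DESeq2. At an unadjusted p under 0.05 it gave 1 member and 1156 genes. That member was E2f8 (log2 -0.61, interval -1.07 to -0.14, adjusted p = 0.678 in edgeR), for which the Sav1 effect was 0.12 in LIN9 wt and -0.48 in LIN9 KO ventricles. With 1 library left out, its effect in LIN9 wt ventricles ranged from 0.039 to 0.22. For Rb1 the interaction was 0.64 (interval -0.02 to 1.29, adjusted p = 0.76 in edgeR), and it ranged from 0.47 without SAV1 KO replicate 2 to 0.99 without SAV1 KO replicate 3.

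The genes on which E2F proteins act were read from lists. Of 32 G1/S genes known as targets of activator E2Fs, Cdt1, Gins2 and Tk1 had no counts in any of the 18 libraries. Whether their reads were lost under overlapping genes was not tested, and 29 genes of the list could be tested. After deletion of Lin9, 5 fell and 1 rose in the first experiment, 9 fell and 0 rose in the second with wild-type Sav1, and 13 fell and 0 rose with Sav1 deleted. Of all genes, 20.9%, 23.2% and 23.4% were called in these comparisons. The median log2 fold changes of the list were -0.01, -0.16 and -0.29, against 0.02, 0.01 and 0.03 for all genes. Ung, which removes uracil from DNA, fell most in each comparison (log2 -1.01, -1.33 and -1.28, adjusted p = 5.05e-05, 2.48e-06 and 3.38e-06 in edgeR). Rrm2, a subunit of ribonucleotide reductase (-0.67, -0.89 and -0.93), Ccne1, which encodes cyclin E1 (-0.51, -0.94 and -0.68), Pcna (-0.37, -0.54 and -0.57) and the replication factor gene Gins1 (-0.36, -0.48 and -0.71) were also called in each. Mcm2, a subunit of the MCM helicase, fell in the second experiment with wild-type Sav1 (-0.33) and with Sav1 deleted (-0.81), and the difference was not called (interaction -0.47, adjusted p = 0.678 in edgeR). The replication factor gene Mcm10 rose by 0.39 in the first experiment. Deletion of Sav1 gave 0 calls on this list by edgeR in either background, and the interaction also gave 0. The list's median was 0.10 in the LIN9 wt background (27 of 29 values above 0) and 0.0053 in the LIN9 KO background (15 of 29), where the medians of all genes were 8.05e-05 and 0.00093.

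Upstream of RB, 3, 5 and 5 of 10 genes for cyclin D kinases and their inhibitors were called after Lin9 deletion, beside 20.9%, 23.2% and 23.4% of all genes, and the medians of the list were -0.18, -0.12 and -0.25. The kinase inhibitor genes Cdkn1c, Cdkn2c and Cdkn2d fell in each comparison (log2 -0.58, -0.49 and -0.57 for Cdkn1c, -0.58, -0.53 and -0.89 for Cdkn2c, and -0.54, -0.56 and -0.76 for Cdkn2d). Ccnd2, which encodes cyclin D2, rose in the second experiment (0.41 and 0.44) and had 0.23 in the first (adjusted p = 0.16 in edgeR). Cdkn1b rose by 0.34 with wild-type Sav1 and Ccnd3 fell by 0.34 with Sav1 deleted in the second experiment. Of the other pocket protein genes, Rbl1 (p107) fell by 0.38, 0.48 and 0.62, opposite in direction to Rb1, while Rbl2 (p130) was not called (log2 -0.14, 0.13 and -0.22).

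Of 12 genes for partners of E2F6 in its Polycomb complex, 0, 2 and 0 passed edgeR's test, where 20.9%, 23.2% and 23.4% of all genes did, with medians of -0.05, 0.02 and -0.04. Those called were Max (log2 0.35) and Cbx3 (-0.39) with wild-type Sav1 in the second experiment. Of 4 germline genes that E2F6 is known to repress, 3 could be tested, and Stag3 alone was called (log2 0.95, adjusted p = 0.0347, edgeR), with Sav1 deleted. It is named for being the single call, as its level lay below the minimum for naming.

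**Figure D4:**
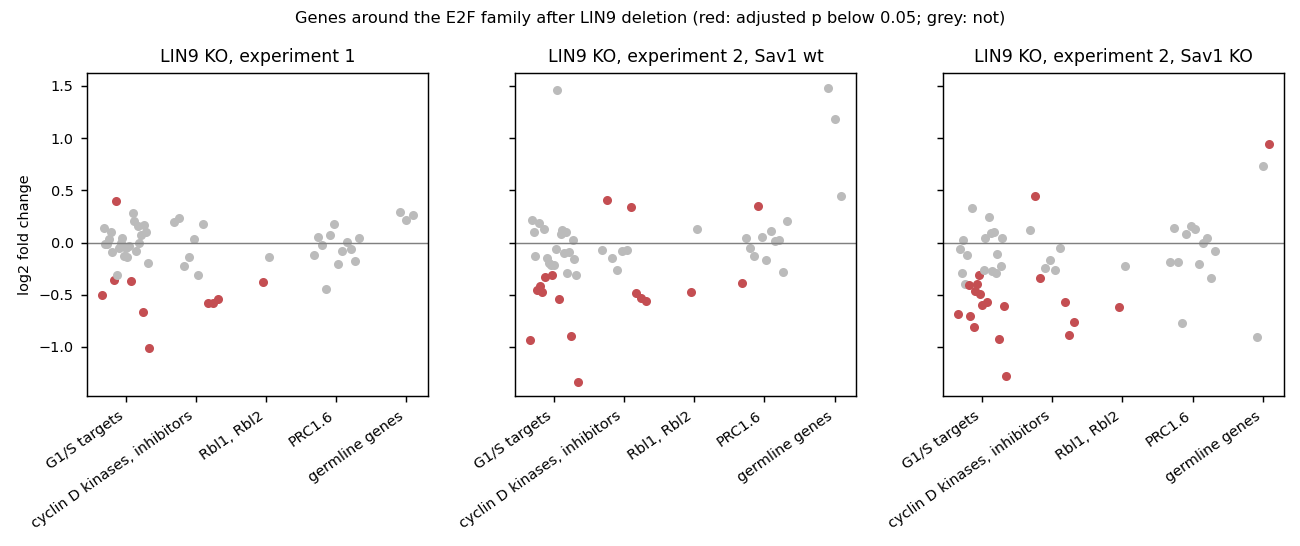
Log2 fold changes after deletion of Lin9 for the genes of 5 lists around the E2F family, in the 3 comparisons. Each point is a gene, red where edgeR's adjusted p was below 0.05. Of the 29 G1/S targets tested, 6, 9 and 13 are red, all below 0 but Mcm10 in the first experiment.

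The genes with the pattern most like that of a member were sought for the 4 members with the lowest adjusted p, among 12117 genes with a mean of at least 5 CPM in both experiments, by Pearson's r over the 18 libraries after subtraction of each experiment's mean. The genotype difference is part of this measure, and the libraries fall into groups by genotype. For Rb1 these were Fam49a, Itpr2 and Prrg4 (r = 0.939, 0.937 and 0.936). E2f8 was followed by Pgm5, Zcchc24 and Prcc (0.936, 0.933 and 0.926), Tfdp2 by Camk2n1, Cyp27a1 and Hjurp (0.945, 0.944 and 0.940), and E2f1 by Zfp251, Ramp1 and Mrpl27 (0.957, 0.952 and 0.948).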

How the data were processed

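The deposited tables hold whole-number counts per Ensembl gene. To make these counts, the authors mapped reads of poly-A RNA with TopHat2 (version 2.1.0 in the submitters' processing notes) and Bowtie2 to mm10, reduced all samples to the smallest number of mappable reads and counted with summarizeOverlaps. The overlap mode and strand setting are not given in the sources used here. Library totals were 9485599 to 9615274 counts in the first and 2770741 to 2999877 in the second experiment. Further deposited tables hold the authors' own fold changes and p-values and were not used, and 4 ChIP-seq samples were not analysed here. In each table, 4 rows that repeated an identifier with identical counts were dropped.

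Counts of genes with a mean above 1 were scaled by TMM and tested with edgeR 4.0.16 (R 4.3.3, quasi-likelihood test, robust, Benjamini-Hochberg threshold 0.05), 1 fit per experiment, and an added fit of all 18 libraries for the mean LIN9 effect. The standard error is the log2 fold change divided by the square root of F. DESeq2 1.42.0 was an alternative, beside other scaling, filters, a replicate block and omission of each library. The fits were tested on simulated data. Libraries of a group were compared with each other (mean chi-square per gene 1.22 to 26.2), and none was dropped. Replicate numbers were taken to pair libraries where deviations from the group means correlated above 0.1 for every pair, over genes of at least 5 CPM. This held for control and LIN9 KO of the second experiment (0.257 to 0.637) and for control and SAV1 KO (0.102 to 0.330), from the data alone.

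The 10 members, Lin9, Sav1 and the lists were chosen with earlier results of these data known. List genes are named where called, with the largest changes and a mean of at least 5 CPM. Positions and exon lengths are from GENCODE M21 on mm10.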

Additional observations from a re-analysis of the deposited data

How the results depend on the processing

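The mean LIN9 effect, which called 8036 genes in the main fit, called 7 members under DESeq2 (7508 genes). It also called 7 under other scaling (7917 and 7874 genes) and other filters (7740 and 6952 genes). When 1 of the 18 libraries was left out, 6 to 7 members and 7434 to 8093 genes were called. Over the 3 single LIN9 comparisons, 200 values of the members under other settings of the whole fit comprised 186 that kept direction and side of the threshold, 12 newly called, 2 calls lost and 0 reversed. With 1 library left out, 152 of 180 kept both, 15 lost and 4 gained a call, and 9 reversed. The cause of these shifts was not tested. Library totals were lower in the second experiment, with 19 to 63 counts per library for Rb1 and 32 to 60 for E2f7, and the part of depth in the calls was not tested.

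With the replicate as a block, 5 members were called in place of 3 in the first experiment, where the numbers did not pair the libraries (correlations 0.0576 to 0.285). The share of all genes called in that fit is not given here, so these 5 are not read as a result about the members. In the second experiment with wild-type Sav1 the block gave 5 members, beside 24.7% of all genes in place of 23.2%. For Sav1 deletion in ventricles without Lin9, it gave 84 called genes. The block changed the number of members called in no other comparison. In the second experiment with wild-type Sav1, 5 members were called with no filter, 1 by DESeq2 and 1 in a fit of the 6 libraries alone. The main fit called 2 members there, beside 23.2% of all genes. The shares of all genes at the other settings are not given here, so these counts show only that the calls depend on the setting. Sav1 deletion called 22 genes in the LIN9 wt background with no filter and 31 in the fit of 6 libraries. In the LIN9 KO background it called 309 genes with no filter, 0 with a mean count above 10, 77 by DESeq2 and 0 in the fit of 6 libraries, and the interaction called 17 genes with no filter. E2f1 after Sav1 deletion in LIN9 wt turned to -0.0069 with library totals, and the difference of LIN9 effects between experiments turned to -0.0070 for Rb1 with a mean count above 10.

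With 1 library left out, called members ranged from 1 to 3 in the first experiment (2722 to 4223 genes). They ranged from 1 to 4 in the second with wild-type Sav1 (3035 to 4116 genes) and from 3 to 5 with Sav1 deleted (2974 to 3841 genes). Genes called ranged from 0 to 2 for Sav1 deletion in LIN9 wt, from 0 to 378 in LIN9 KO and from 0 to 64 for the interaction. None of the following log2 fold changes was called, and their sign turned. The LIN9 effect ranged from -0.0094 to 0.19 for E2f5 in the first experiment, from -0.12 to 0.33 for E2f2 and from -0.14 to 0.026 for E2f5 in the second, and from -0.31 to 0.016 for E2f2, from -0.018 to 0.16 for E2f3, from -0.33 to 0.019 for Lin9 and from -0.028 to 0.097 for Sav1 with Sav1 deleted. Its mean ranged from -0.043 to 0.11 for E2f2. The Sav1 effect ranged from -0.15 to 0.094 for E2f1, from -0.032 to 0.15 for E2f3, from -0.011 to 0.076 for E2f6, from -0.27 to 0.074 for Lin9 and from -0.14 to 0.0041 for Tfdp2 in LIN9 wt and from -0.14 to 0.11 for E2f6 in LIN9 KO. The interaction ranged from -0.17 to 0.074 for E2f6, from -0.21 to 0.17 for E2f7, from -0.012 to 0.21 for Tfdp1 and from -0.15 to 0.012 for Tfdp2. The difference between experiments ranged from -0.055 to 0.20 for E2f1, from -0.27 to 0.16 for E2f2, from -0.088 to 0.10 for E2f3, from -0.22 to 0.016 for E2f6, from -0.26 to 0.094 for E2f7 and from -0.16 to 0.15 for Rb1.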

Other observations

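Lin9 itself was higher in double KO than in LIN9 KO ventricles of the second experiment, with 18.5 to 26.1 CPM against 13.1 to 17.9 CPM and no overlap (log2 fold change 0.56, adjusted p = 0.238 in edgeR). The spread of the members between libraries of a group was widest for Rb1 in SAV1 KO (coefficient of variation 38.3%, n = 3) and for E2f2 in LIN9 KO ventricles of the second experiment (37.2%), and narrowest for E2f3 in LIN9 wt ventricles of the first (0.648%).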
